A study of Mus musculus with 8 samples.

Results

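The leukocyte lineage genes are 46 genes that mark the blood-derived cells of a tissue, chosen by their symbols from a list. All 46 were found among the 16119 genes of the deposited table, which writes symbols in capitals (PTPRC, LAPTM5, C1QB). They comprise 7 pan-leukocyte genes, 9 T and NK cell genes, 3 B cell genes, 6 shared myeloid genes, 13 monocyte and macrophage genes, 3 dendritic cell genes, 3 granulocyte genes and 2 mast cell genes. Their RNA was measured in 8 mouse libraries, all labelled wild type, strain C57BL/6 and untreated. Thyroid follicular cell organoids (TFCOs), which are cultures grown in a basement membrane gel from digested thyroid, came from the lines mThy14 and mThy16, and each line was sequenced at an early and at a late passage. Thyroid tissues 1 and 2 and lung tissues 1 and 2 were sequenced beside them, lung serving as an unrelated control tissue. A line comes from the cells of a single thyroid, so its early and late libraries are not independent samples. The digested thyroid was treated with red blood cell lysis buffer before plating, and the expansion medium held R-spondin 3, A83-01, forskolin, EGF and FGF10.

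Leukocytes arise from blood stem cells and reach the thyroid and the lung through the circulation, or settle there early in life as tissue macrophages. Ptprc (CD45) is carried by nearly all of them, whereas other genes separate lymphocytes, which recognise antigen, from myeloid cells, which take up particles and microbes. The lung holds many leukocytes, among them alveolar macrophages marked by Marco and neutrophils marked by S100a8 and S100a9. Several genes of the list are also used outside blood, such as Kit, a growth factor receptor, and Cd14, a coreceptor for bacterial lipopolysaccharide. The paper describes TFCOs as epithelial, and they were grown from digested thyroid. In its separate single-cell data, the paper reports monocytes with Ptprc RNA among primary tissue cells only. The list compares the RNA of genes that mark leukocytes in these cultures with that in whole tissue.

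Between 9755081 and 16904865 reads on genes were recovered per library, and 1 read was worth 0.674 to 1.41 normalized counts. A value of 0 allows up to 3 reads, which is 2.02 to 4.22 normalized counts depending on the library, for counting error only. The libraries fell into 2 sets that did not follow the groups, since 44 genes had no read in lung or in thyroid tissue 2 while each of the other 5 libraries held 50 normalized counts or more, and 16 genes showed the reverse. TFCOs can therefore be compared within a set only with thyroid tissue 1, and lung only with thyroid tissue 2. Of the 6 thyroid follicular cell genes looked at, 5 were higher in TFCOs and in thyroid tissue than in lung (adjusted p under 0.05), and of the 6 lung epithelial genes, 4 were higher in lung. Values are listed throughout in the order early mThy14, late mThy14, early mThy16, late mThy16, then tissue 1 and tissue 2. In bulk RNA, fewer leukocytes and less RNA per leukocyte cannot be told apart.

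Most of the 46 genes were highest in lung, lower in thyroid and near the detection floor in TFCOs. The group mean was highest in lung for 42 genes, in thyroid for Lck, Cd163 and Cpa3, and in TFCOs for Cd14. In 27 genes every TFCO library lay below 20 normalized counts, and in 38 genes every TFCO library lay below 50. Coro1a, Rac2, Lck and Kit were at 50 or more in every TFCO library. The reads of all 46 genes together made up 0.00870% and 0.0138% of the reads on genes in early and late mThy14, 0.0240% and 0.0258% in early and late mThy16, 0.0373% and 0.0697% for thyroid, and 0.292% and 0.195% for lung. The 95% Clopper-Pearson intervals, which cover counting error only, did not overlap between TFCOs, thyroid and lung. Without Kit, Cd14 and Ccr2, 3 genes set aside after their values were seen, the 4 TFCO libraries lay between 0.00627% and 0.00930%.

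**Figure D1:**
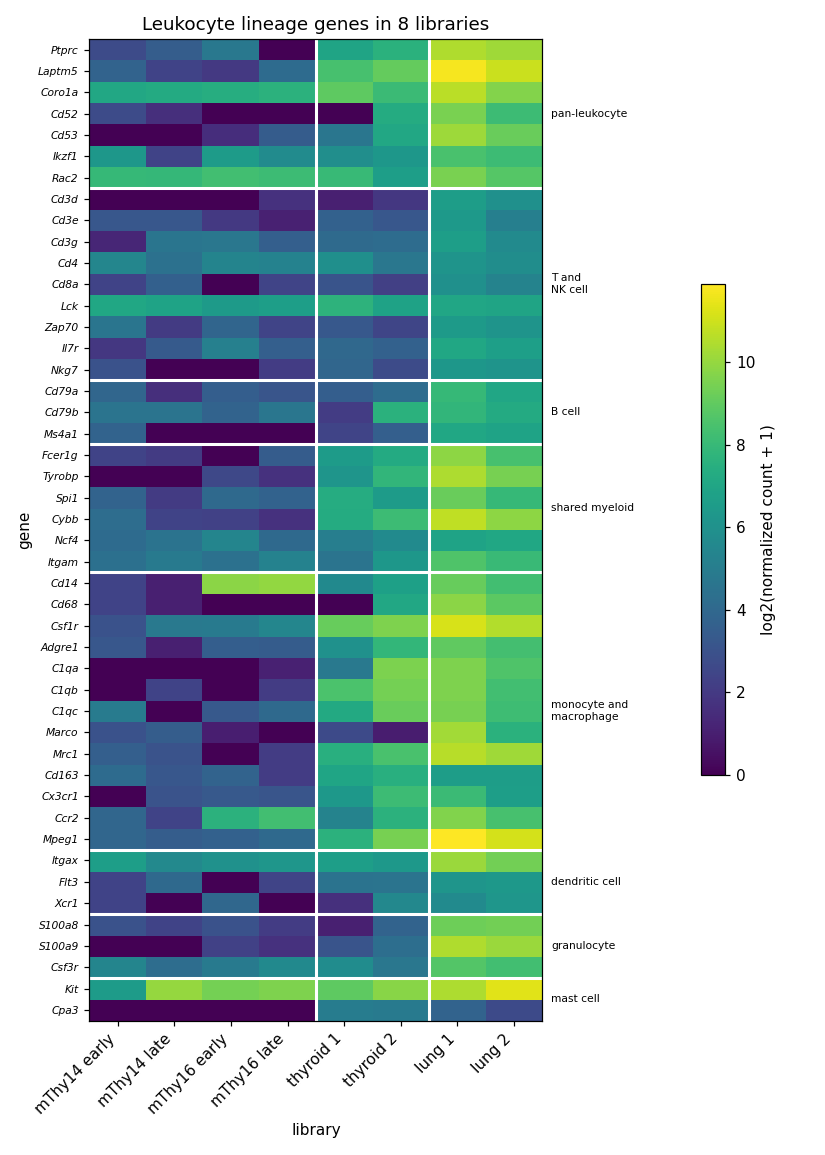
Level of the 46 leukocyte lineage genes (rows, grouped by cell type, white lines between groups) in the 8 libraries (columns), on the colour scale log2(normalized count + 1). The 4 TFCO columns are dark for most rows except Coro1a, Rac2, Lck, Kit and, in mThy16, Cd14 and Ccr2, and the lung columns are brightest for most rows.

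The groups of genes differed in how far TFCOs lay below thyroid. The 6 shared myeloid genes summed to 60.4 to 87.1 normalized counts in TFCOs, 538 and 883 for thyroid, and 5116 and 2623 for lung. The 9 T and NK cell genes summed to 176 to 222 in TFCOs, 336 and 194 in thyroid, and 840.1 and 606 in lung. The 3 granulocyte genes summed to 21.9 to 53.7 in TFCOs, 63.1 and 56.2 in thyroid, and 2447 and 2063 in lung. For myeloid genes thyroid lay between TFCOs and lung, whereas for T and NK cell genes thyroid tissue 2 lay within the range of TFCOs, and for granulocyte genes both thyroid tissues lay just above it. Lck and Cd4 made up most of the T and NK cell sum in TFCOs and thyroid, and the other 7 genes summed to 38.0 to 76.3 in TFCOs, 75.1 and 54.4 in thyroid and 638 and 428 in lung. Without Cd14 and Ccr2, the other 11 monocyte and macrophage genes summed to 77.0 to 103 in TFCOs against 1749 and 4661 in thyroid. These 4 genes were set aside after their values were seen.

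**Figure D2:**
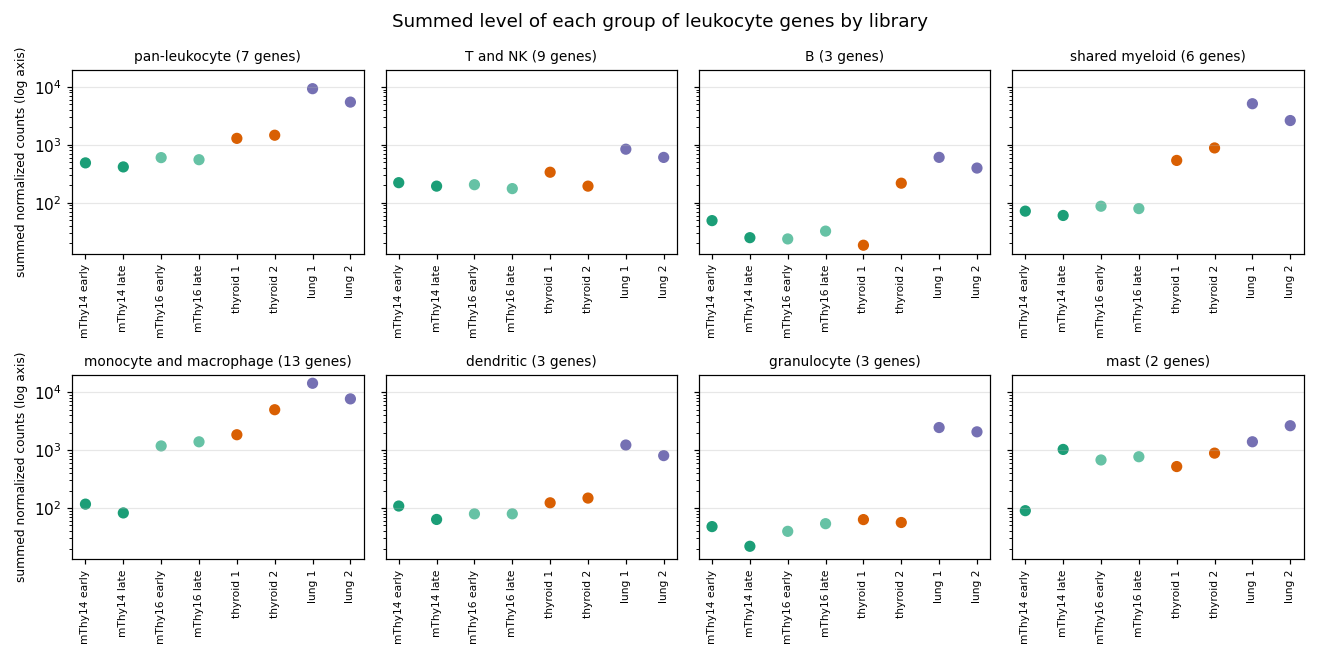
Sum of the normalized counts (log axis) of each group of leukocyte genes in the 8 libraries, with TFCOs in green (mThy14 dark, mThy16 light), thyroid in orange and lung in purple. Shared myeloid genes lie at 60.4 to 87.1 in TFCOs against 538 and 883 in thyroid, and the monocyte and macrophage sum of mThy16 (1178 and 1388) is mostly Cd14 and Ccr2.

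TFCOs were compared with tissue of the organ they derive from. Macrophage, shared myeloid and pan-leukocyte genes held 11 of the 12 calls: C1qb, Laptm5, Tyrobp, Mrc1 and Csf1r had log2 fold changes of -7.84 to -4.83, and no T, B, dendritic or granulocyte gene passed the test. By limma with Benjamini-Hochberg adjustment over 14703 genes, 12 of the 46 genes were lower, beside 3.05% of all genes tested. None of the 46 was higher, beside 0.599% of all genes; at an unadjusted p under 0.05, 18 were lower and 0 higher, and limma's voom on the recovered reads called 2 lower and 0 higher. The median log2 fold change was -2.02 over the 46 genes and 0.05 over all genes tested. In 20 genes the libraries of the groups did not overlap and TFCOs were lower, beside 17.3% of all genes, and in 0 genes TFCOs were higher without overlap, beside 17.2%. Of the 46, 9 genes reached the filter on low values only through lung (Cd52, Cd3d, Cd3e, Cd8a, Nkg7, Cd68, Marco, S100a8 and S100a9). Cpa3, the remaining gene of the 12 calls, reached it only with the thyroid libraries, so its call is a description.

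Among the pan-leukocyte genes, Ptprc, a receptor tyrosine phosphatase, had 5.62, 10.4, 25.7 and 0 normalized counts across the 4 TFCO libraries, against 122 and 189.9 for thyroid and 1390.5 and 1169.5 for lung. Laptm5, a lysosomal membrane protein of blood cells, had 12.7, 4.16, 2.97 and 16.8 normalized counts across the 4 TFCO libraries, against 343 and 529 for thyroid and 3361 and 1921 for lung. For both genes every TFCO library lay below both thyroid tissues, and both thyroid tissues lay below both lung tissues. The log2 fold change of TFCOs against thyroid was -4.51 ± 0.62 (SE, adjusted p = 0.0133) for Ptprc and -5.67 ± 0.51 (SE, adjusted p = 0.00441) for Laptm5. Cd53, a tetraspanin, was at 0 to 10.1 in TFCOs and 23.9 and 138 in thyroid without overlap but did not pass the test (adjusted p = 0.0977). Cd52, a small surface glycoprotein, was at 0 to 5.62 in TFCOs, 0 and 159 in thyroid and 726 and 281 in lung, and its exons overlap Crybg2 on the opposite strand.

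The shared myeloid genes encode signalling adaptors, a transcription factor and parts of the oxidase that kills microbes. Tyrobp, an adaptor of activating receptors, had 0, 0, 4.95 and 2.24 normalized counts across the 4 TFCO libraries, against 72.9 and 225 for thyroid and 1387 and 704 for lung. Fcer1g, the common chain of Fc receptors, had 4.22, 3.12, 0 and 10.1 normalized counts across the 4 TFCO libraries, against 91.4 and 154 for thyroid and 927 and 339.7 for lung. Cybb, the catalytic subunit of the phagocyte oxidase, had 18.3, 4.16, 3.96 and 2.24 normalized counts across the 4 TFCO libraries, against 156 and 286 for thyroid and 1719 and 934 for lung. All 3 were lower in every TFCO library than in either thyroid tissue, with log2 fold changes of -5.95 ± 1.00 (SE, adjusted p = 0.0259), -4.93 ± 0.80 (SE, adjusted p = 0.0231) and -5.07 ± 0.72 (SE, adjusted p = 0.0149). Spi1, which encodes the myeloid transcription factor PU.1, was at 3.12 to 15.8 in TFCOs and 162 and 90.4 in thyroid without overlap (adjusted p = 0.0604). Ncf4, another oxidase subunit, and Itgam, an integrin chain of myeloid cells, overlapped between TFCOs and thyroid at 15.7 to 41.6 against 32.7 and 50.7 and 19.7 to 36.9 against 22.9 and 77.4. Of the 50-base stretches of the Itgam exons, 66.3% also occur in other annotated transcripts, and Gm49368 overlaps it on the same strand, so its reads are uncertain.

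The macrophage genes held 6 of the 12 calls. C1qa, C1qb and C1qc encode the chains of complement C1q, which tissue macrophages make, and lie side by side on chromosome 4 (GRCm38, 136880129 to 136898803, minus strand). C1qb had 0, 4.16, 0 and 3.35 normalized counts across the 4 TFCO libraries, against 367 and 673 for thyroid and 761 and 313 for lung. C1qc had 29.5, 0, 8.91 and 15.7 normalized counts across the 4 TFCO libraries, against 147 and 578 for thyroid and 685 and 288.5 for lung. C1qa was at 0, 0, 0 and 1.12 in the TFCO libraries, 27.2 and 747 in thyroid and 768 and 386 in lung. All 3 were lower in every TFCO library than in either thyroid tissue, and C1qb (log2 fold change -7.84 ± 0.74 SE, adjusted p = 0.00509) and C1qc (log2 fold change -5.12 ± 0.90 SE, adjusted p = 0.0306) passed the test, whereas C1qa did not (adjusted p = 0.0545). C1qa had 1 read in the 4 TFCO libraries together and 835 in the thyroid tissues, a ratio of pooled levels of 1491 with a counting interval of 267 to 58950. This ratio rests on thyroid tissue 2, which held 810 of the 835 reads, and against thyroid tissue 1 alone it was 97.3. Thyroid tissue 1 had 27.2 normalized counts of C1qa but 367 of C1qb, whereas C1qa was the higher of them in thyroid tissue 2 and in both lung tissues.

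Several receptors and surface proteins of macrophages were also lower in TFCOs. Csf1r, the receptor for the macrophage growth factor CSF1, had 7.03, 27.1, 27.7 and 42.5 normalized counts across the 4 TFCO libraries, against 559.5 and 769.8 for thyroid and 2321 and 1441 for lung. Mrc1, the mannose receptor, had 11.2, 7.29, 0 and 3.35 normalized counts across the 4 TFCO libraries, against 179 and 357 for thyroid and 1568 and 1155 for lung. Mpeg1, a pore-forming protein of macrophages, had 14.1, 10.4, 11.9 and 15.7 normalized counts across the 4 TFCO libraries, against 197 and 699.8 for thyroid and 3767 and 2207 for lung. In all 3 the TFCO libraries lay below thyroid, with log2 fold changes of -4.83 ± 0.55 (SE, adjusted p = 0.00781), -5.79 ± 0.86 (SE, adjusted p = 0.017) and -4.75 ± 0.67 (SE, adjusted p = 0.0142). Cd163, a receptor that clears haemoglobin, had 16.9, 8.33, 12.9 and 3.35 normalized counts across the 4 TFCO libraries, against 124 and 182 for thyroid and 96.3 and 97.1 for lung. Its TFCO libraries also lay below thyroid (log2 fold change -3.92 ± 0.74 SE, adjusted p = 0.0382), and its thyroid libraries lay above lung. Adgre1 (F4/80) and Cx3cr1, the receptor for the chemokine fractalkine, were at 1.04 to 10.9 and 0 to 8.91 in TFCOs against 63.1 and 234 and 80.6 and 281 in thyroid, without overlap, yet missed the threshold (adjusted p = 0.0606 and 0.0542). Cd68, a lysosomal glycoprotein, was at 4.22, 1.04, 0 and 0 in TFCOs and at 0 and 139 in thyroid, so that thyroid tissue 1 lay within the range of TFCOs. Part of the Csf1r exons, 14.3% of 50-base stretches, also occurs elsewhere in the annotation, and Hmgxb3 overlaps it on the opposite strand.

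Cpa3, a protease stored in mast cell granules, was not detected in TFCOs. It had 0, 0, 0 and 0 normalized counts across the 4 TFCO libraries, against 30.5 and 27.7 for thyroid and 12.6 and 5.39 for lung. No read was found in any TFCO library, and thyroid was above lung in both libraries. With 3 reads allowed over the 4 TFCO libraries together, the pooled thyroid level was 34.5-fold that of TFCOs. This value takes the 58 thyroid reads as exact and leaves out the spread between samples. The fitted difference had an adjusted p of 0.0428 by limma, and the call was lost with voom and with only the groups compared. Cpa3 reached the filter on low values only with the thyroid libraries, so its call is a description. Kit, the receptor that mast cells share with several other cell types, overlapped between TFCOs and thyroid. Of 7 other mast cell genes tested, limma and voom each called 0 between TFCOs and thyroid and each gave 1 lower at an unadjusted p under 0.05, with a median log2 fold change of 0.07 by limma.

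The promoters of C1qc, S100a8 and Cpa3 are shown as examples from the macrophage, granulocyte and mast cell genes described here. RefSeq promoters (build GRCm38.p6) matched 34 of the 46 genes. The binding letters of PU.1, GAGGAAGT on either strand within 250 bases before the start, were found in 2 of 34 (5.88%), C1qc and S100a8, against 2.79% of all genes. The letters of RUNX factors, TGTGGT on either strand, were found in 9 of 34 (26.5%) against 15.9% of all genes. Capitals mark the PU.1 letters in C1qc (chr4:136893066-136893164, minus strand, 99 bases) and S100a8 (chr3:90668821-90668977, plus strand, 157 bases), and the RUNX letters in Cpa3 (chr3:20242182-20242431, minus strand, 250 bases). All 3 matches are on the opposite strand, so the capitals read as the reverse complement. C1qc also holds the RUNX letters, outside the stretch printed. Each sequence is given 5′ to 3′ and ends where the first annotated exon starts or at the RefSeq start.
C1qc: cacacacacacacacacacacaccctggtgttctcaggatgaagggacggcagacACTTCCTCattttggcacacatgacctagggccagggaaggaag
S100a8: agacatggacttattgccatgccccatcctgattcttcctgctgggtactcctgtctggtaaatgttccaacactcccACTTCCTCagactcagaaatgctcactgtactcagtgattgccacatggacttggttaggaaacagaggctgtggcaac
Cpa3: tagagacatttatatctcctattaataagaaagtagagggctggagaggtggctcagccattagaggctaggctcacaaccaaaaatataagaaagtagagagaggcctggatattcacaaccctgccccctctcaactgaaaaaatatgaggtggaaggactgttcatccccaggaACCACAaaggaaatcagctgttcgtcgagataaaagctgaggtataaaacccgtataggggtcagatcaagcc
A match describes the letters of the window, and no binding was measured here.

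Most T and B cell genes were low both in TFCOs and in thyroid, with Lck, Cd4 and, in thyroid tissue 2, Cd79b as exceptions. The CD3 chains of the T cell receptor complex, Cd3d, Cd3e and Cd3g, which lie within 44969572 to 45009627 of chromosome 9 (GRCm38), were at 0 to 24.8 in TFCOs, 1.09 to 17.5 in thyroid and 33.7 to 99.7 in lung. Cd8a, Il7r and Zap70 (a coreceptor, a cytokine receptor and a kinase of T cells) and the cytotoxic granule gene Nkg7 were at 0 to 34.7 in TFCOs and 3.69 to 15.2 in thyroid. The B cell genes Cd79a and Ms4a1 (CD20) were at 0 to 14.1 and 4.35 to 17.5. TFCOs and thyroid overlapped in each of these genes. Cd79b, which pairs with Cd79a in the B cell receptor, differed between the thyroid tissues, at 3.27 and 189, with TFCOs at 12.9 to 24.6. Of the dendritic cell genes, Flt3, a growth factor receptor, was at 0 to 15.6 in TFCOs, 21.8 and 23 in thyroid and 72.9 and 80.9 in lung, without overlap between TFCOs and thyroid (adjusted p = 0.271).

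These calls rested on both thyroid tissues and on the lung libraries in the shared estimate of spread. Without thyroid tissue 2, 2 genes were called (C1qb and Laptm5), without lung tissue 1 or lung tissue 2, 3 were (these and Csf1r), and without thyroid tissue 1, 21 were. C1qb alone was called with lung left out of the fit, and voom called 2 (Laptm5 and Csf1r).

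**Figure D3:**
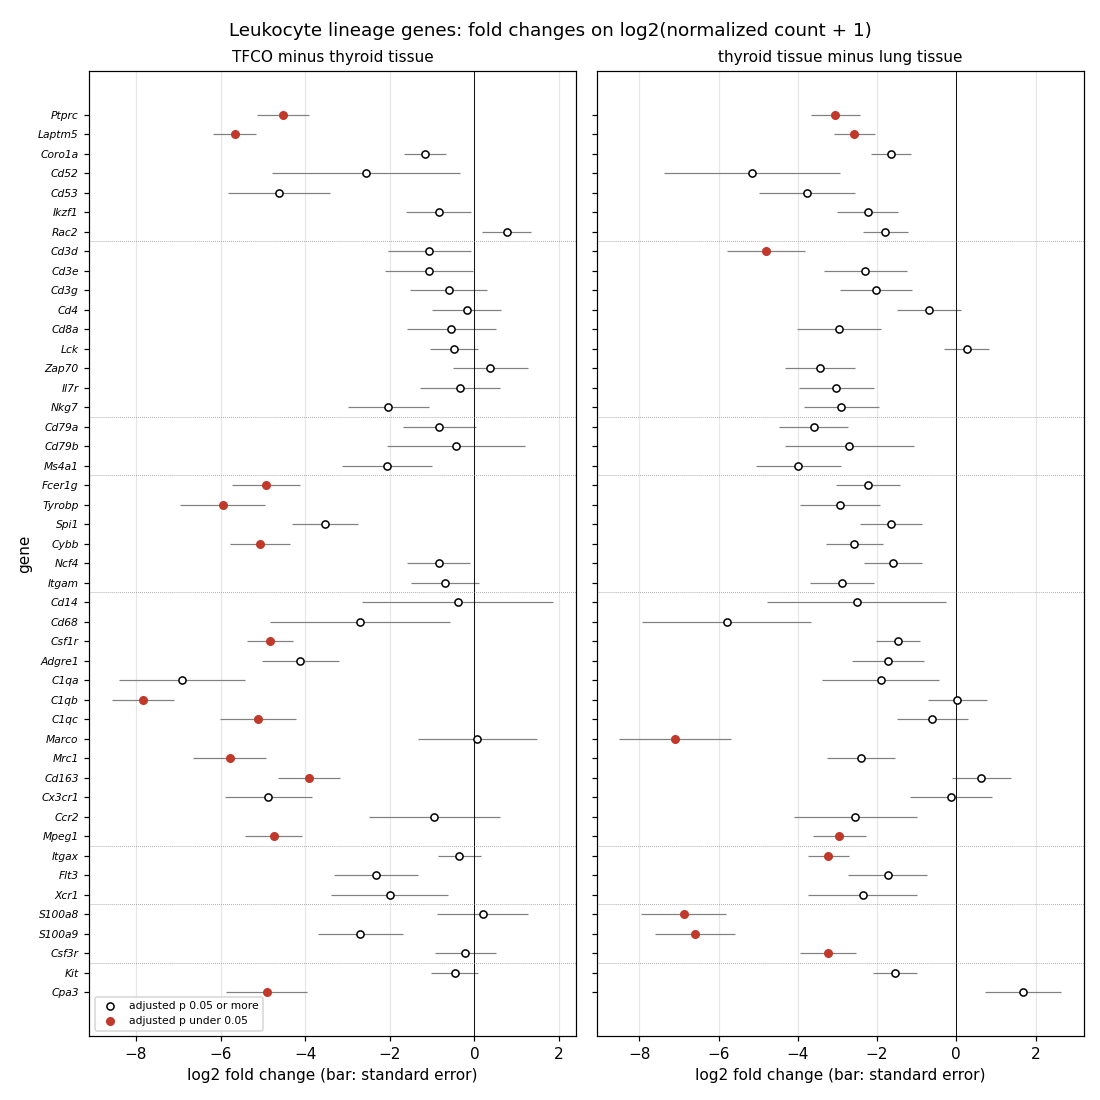
Log2 fold changes (points) with standard errors (bars) of the 46 genes, for TFCOs minus thyroid tissue (left) and thyroid minus lung tissue (right). Filled red points passed the test at an adjusted p of 0.05, which is 12 genes on the left, mostly myeloid, and 9 on the right, 3 of them granulocyte genes. Of the 9, 4 reached the filter on low values only through lung, and on the left Cpa3 reached it only with thyroid.

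Beside thyroid tissue 1, the only tissue of their set, every TFCO library was lower in 25 of the 46 genes, beside 25.9% of all genes, and above it in 2, Cd79b and S100a8, beside 25.8%. The median difference was -1.15 on the log2 scale, against 0.02 over all genes. Against both thyroid tissues, limma also called 6 of 6 fibroblast and 6 of 8 endothelial genes lower in TFCOs, beside 3.05% of all genes. The 6 fibroblast genes summed to 80.1 to 228 normalized counts in TFCOs against 22730 in either thyroid tissue. The 8 endothelial genes summed to 239 to 534 in TFCOs and to 3873 and 9685 for thyroid, and the part of these cells in the result was not tested.

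The thyroid tissues differed from each other. Thyroid tissue 2 was above thyroid tissue 1 in 32 of the 46 genes, beside 47.3% of all genes, and by more than 2 on the log2 scale in 8, beside 10.6%, with 0 genes the other way by that much. The 8 genes were Cd52, Cd53, Cd79b, Cd68, C1qa, Ccr2, Xcr1 and S100a8, whereas Spi1, Coro1a and Rac2 were among those with more in thyroid tissue 1. With 1 library in each set, tissue and set cannot be told apart here.

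Thyroid was then compared with lung, the control tissue. Granulocyte genes S100a8 and S100a9 lay at 1.10% and 1.04% of their lung level, the alveolar macrophage marker Marco was nearly absent from thyroid, and C1q genes and Cx3cr1 overlapped between the tissues. By limma, 9 of the 46 genes were lower in thyroid, beside 3.16% of all genes, and 0 were higher, beside 2.89%. Of these 9, 4 (Marco, Cd3d, S100a8 and S100a9) reached the filter on low values only through lung, so they had to differ and their calls are a description. At an unadjusted p under 0.05, 27 were lower and 0 higher, and voom called 8 lower and 0 higher. The libraries did not overlap in 37 genes with thyroid lower, beside 27.5% of all genes, and in 2 genes, Cd163 and Cpa3, with thyroid higher, beside 26.2%. The 37 include all 9 genes of the list that reached the filter only through lung.

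All 3 granulocyte genes were lower in thyroid, and of them Csf3r alone reached the filter without lung. S100a8 and S100a9 together encode calprotectin, the main cytosolic protein of neutrophils, and are neighbours on chromosome 3 (GRCm38, 90668978 to 90695721). S100a8 had 7.03, 4.16, 6.93 and 3.35 normalized counts across the 4 TFCO libraries, against 1.09 and 12.9 for thyroid and 611 and 661 for lung. S100a9 had 0, 0, 3.96 and 2.24 normalized counts across the 4 TFCO libraries, against 7.62 and 18.4 for thyroid and 1419.8 and 1096 for lung. Csf3r, the receptor for the granulocyte growth factor CSF3, had 40.8, 17.7, 28.7 and 48.1 normalized counts across the 4 TFCO libraries, against 54.4 and 24.9 for thyroid and 416 and 307 for lung. In all 3, both lung libraries stood above the other 6, and the log2 fold changes of thyroid against lung were -6.88 ± 1.08 (SE, adjusted p = 0.0184), -6.59 ± 1.00 (SE, adjusted p = 0.0165) and -3.24 ± 0.71 (SE, adjusted p = 0.0453). The thyroid mean of Csf3r was 11.0% of the lung mean.

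Marco, a scavenger receptor of alveolar macrophages, had 7.03, 10.4, 0.99 and 0 normalized counts across the 4 TFCO libraries, against 5.44 and 0.922 for thyroid and 1209.5 and 190.1 for lung. Both lung libraries stood far above the rest but differed from each other, and the log2 fold change of thyroid against lung was -7.09 ± 1.41 (SE, adjusted p = 0.0338). Itgax (CD11c), an integrin chain of dendritic cells and alveolar macrophages, had 99.8, 47.9, 64.4 and 74.9 normalized counts across the 4 TFCO libraries, against 99.1 and 80.2 for thyroid and 1099 and 646 for lung. Thyroid overlapped with TFCOs for Itgax and lay below lung, with a log2 fold change of -3.23 ± 0.51 (SE, adjusted p = 0.0185). Cd3d had 0, 0, 0 and 2.24 in TFCOs, 1.09 and 2.77 in thyroid and 97.2 and 60.7 in lung. It fell below lung in thyroid (log2 fold change -4.79 ± 0.99 SE, adjusted p = 0.038), from 4 reads in the thyroid tissues together. Marco and Cd3d reached the filter on low values only through lung, so their calls are a description. Ptprc (log2 fold change -3.06 ± 0.62 SE, adjusted p = 0.0353), Laptm5 (log2 fold change -2.57 ± 0.51 SE, adjusted p = 0.0342) and Mpeg1 (log2 fold change -2.95 ± 0.67 SE, adjusted p = 0.0496) were also lower.

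Some macrophage genes overlapped between thyroid and lung. The thyroid mean was 96.8% of the lung mean for C1qb, 97.7% for Cx3cr1, 74.5% for C1qc and 67.1% for C1qa, with overlapping libraries in all 4. These means rest on tissues that differed, since thyroid tissue 1 alone was at 68.3% of the lung mean for C1qb, 43.5% for Cx3cr1, 30.2% for C1qc and 4.71% for C1qa, and thyroid tissue 2 alone at 125%, 152%, 119% and 129%. For Cd163 the thyroid mean was 158% of that of lung, and for Cpa3 it was 324%, without overlap but short of the threshold (adjusted p = 0.627 and 0.346). Csf1r, Adgre1 and Mrc1 lay below lung in both thyroid tissues, with thyroid means of 35.3%, 35.7% and 19.7% of lung (adjusted p = 0.168, 0.311 and 0.154).

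**Figure D4:**
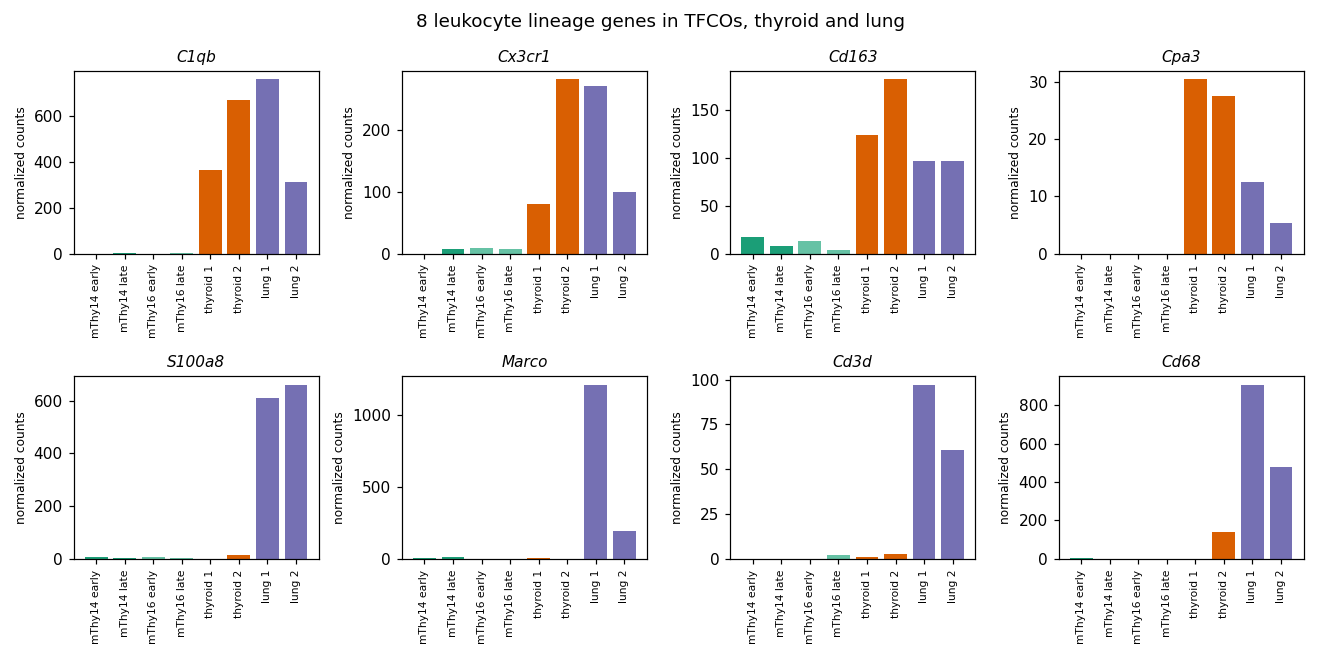
Normalized counts (linear axes, bars) of 8 genes in the 8 libraries, with TFCOs in green, thyroid in orange and lung in purple. C1qb and Cx3cr1 overlap between thyroid and lung, both thyroid libraries lie above lung for Cd163 and Cpa3, S100a8, Marco and Cd3d are high in lung alone, and Cd68 is at 0 in thyroid tissue 1.

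Within the set of thyroid tissue 2 and lung, thyroid tissue 2 was below both lung libraries in 39 genes, beside 38.8% of all genes. It was above both in 3 (Cd163, Cx3cr1 and Cpa3), beside 38.9%. The 39 include all 9 genes that reached the filter on low values only through lung, whose place below lung is a description. Endothelial genes were also lower, at 9685 in thyroid tissue 2 and at 30120 and 52510 in lung, and their part was not tested. Lung tissue 1 was above lung tissue 2 in 40 of the 46 genes, beside 48.9% of all genes. Without lung tissue 1 or lung tissue 2, 0 genes were called lower, without early mThy16 4 were, without thyroid tissue 2, 20 were, and with only thyroid and lung in the fit 2 were (Ptprc and S100a9).

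TFCOs were lower than lung in 34 of the 46 genes, beside 13.5% of all genes, and higher in 0, beside 9.83%. Endothelial and fibroblast genes moved with them, with 8 of 8 and 6 of 6 lower in TFCOs than in lung, and their part in the result was not tested. At an unadjusted p under 0.05, 40 were lower and 0 higher, and voom called 31 lower and 0 higher. The libraries did not overlap in 44 genes with TFCOs lower, beside 33.3% of all genes, and in 0 with TFCOs higher, beside 34.4%. The 44 include all 9 genes of the list that reached the filter on low values only through lung. Of the 34, 7 (Cd52, Cd3d, Nkg7, Cd68, Marco, S100a8 and S100a9) reached the filter only through lung, so they had to differ. The largest fold changes were those of S100a9 (log2 fold change -9.28 ± 1.00 SE, adjusted p = 0.0023), Tyrobp (log2 fold change -8.88 ± 1.00 SE, adjusted p = 0.00289) and C1qa (log2 fold change -8.82 ± 1.48 SE, adjusted p = 0.0109). The 12 genes that did not pass were Rac2, Cd3e, Cd3g, Cd4, Cd8a, Lck, Cd79b, Ncf4, Cd14, Ccr2, Xcr1 and Cpa3. Without lung tissue 1, 9 genes were called, and without lung tissue 2, 10 were. Every TFCO library lies in one set and both lung libraries in the other, so tissue and set cannot be told apart for this comparison.

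None of the 46 genes passed the test between passages. Late against early TFCOs gave 0 calls among the 46 and 0 among 14703 genes by limma, with 2 of the 46 and 166 of all genes at an unadjusted p under 0.05. The 2 genes of the list were C1qb, at 0, 4.16, 0 and 3.35, and Xcr1, a chemokine receptor of a dendritic cell type, at 4.22, 0, 14.9 and 0. Both are at the floor in several libraries, while in tissue Xcr1 was at 2.18 and 45.2 in thyroid and 50.3 and 74.8 in lung. Voom called 0 as well. The early and late libraries did not overlap in 8 genes with late lower, beside 12.4% of all genes, and in 6 with late higher, beside 11%.

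A few members were well expressed in TFCOs. Coro1a, an actin regulator, had 138, 151, 167 and 196 in the TFCO libraries, 492 and 271 in thyroid and 1614 and 809 in lung, and its exons overlap Bola2 on the opposite strand. Rac2, a small GTPase, had 249, 244, 312 and 278 in TFCOs, 255 and 98.7 in thyroid and 713 and 426 in lung. Lck, a kinase of T cells, had 132, 117, 88.1 and 101 in TFCOs, 201 and 114 in thyroid and 132 and 122 in lung. All 3 kept to a narrow range in TFCOs, and Lck overlapped between all 3 groups although the CD3 chains were low in TFCOs. Ikzf1, a lymphoid transcription factor, and Cd4, a coreceptor, were at 77.3, 4.16, 91.1 and 52.5 and 42.2, 20.8, 40.6 and 36.9 in the TFCO libraries, of which late mThy14 was the lowest for both. In tissue, Ikzf1 was at 56.6 and 78.4 in thyroid and 355 and 282 in lung, and Cd4 at 59.9 and 24.9 and 70.4 and 55.9, so that both overlapped between TFCOs and thyroid.

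Cd14 and Ccr2 differed between the lines. Cd14 had 4.22, 1.04, 899 and 978 normalized counts across the 4 TFCO libraries, against 49 and 105 for thyroid and 549 and 313 for lung. Ccr2, a chemokine receptor of monocytes, had 14.1, 4.16, 197 and 307 normalized counts across the 4 TFCO libraries, against 39.2 and 200.1 for thyroid and 789.9 and 347 for lung. For Cd14, both mThy16 libraries were above lung and both mThy14 libraries were below thyroid. It was the only one of the 46 genes in which the lines differed in one direction by over 4 on the log2 scale at both passages, as did 0.701% of all genes. Both mThy14 libraries were below both thyroid tissues for Ccr2 as well, whereas mThy16 was above thyroid tissue 1. The tests compared the mean of the lines with tissue, and neither gene passed them. Kit had 90.0, 1025, 674 and 767 normalized counts across the 4 TFCO libraries, against 489 and 857 for thyroid and 1377 and 2624 for lung, lowest in early mThy14, and was lower in TFCOs than in lung (log2 fold change -2.02 ± 0.56 SE, adjusted p = 0.0428).

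**Figure D5:**
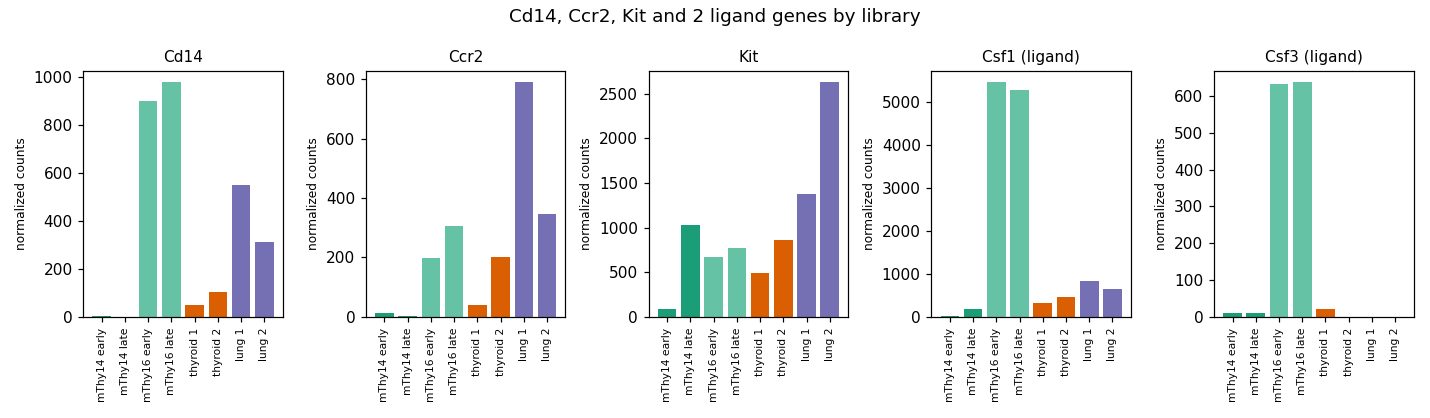
Normalized counts (linear axes, bars) of Cd14, Ccr2, Kit and the ligand genes Csf1 and Csf3 in the 8 libraries, with TFCOs in green (mThy14 dark, mThy16 light), thyroid in orange and lung in purple. Cd14, Ccr2, Csf1 and Csf3 are high in both mThy16 libraries and low in both mThy14 libraries.

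Other genes that leukocytes use were looked up from textbook lists. Of 107 such genes, 97 were in the table and 89 were tested. In TFCOs against thyroid, 4 were lower, and against lung 38 were lower. Among the pan-leukocyte genes Hcls1, Nckap1l and Itgb2 fell, with log2 fold changes of -3.97 ± 0.63 (SE, adjusted p = 0.021), -3.21 ± 0.52 (SE, adjusted p = 0.0236) and -2.43 ± 0.48 (SE, adjusted p = 0.0441), and so did the macrophage cathepsin Ctss, with -4.32 ± 0.46 (SE, adjusted p = 0.00688). In thyroid against lung, 14 were lower.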

How the data were processed

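RNA of 4 TFCO, 2 thyroid and 2 lung libraries was analysed. The authors deposited a signal table of normalized counts, that is reads per gene divided by a size factor per library. Per the paper's methods, polyA-enriched RNA was sequenced with a stranded paired-end kit, mapped to the mouse genome and analysed with DESeq2, whereas the labels describe an adapted CEL-Seq protocol. The submitters' processing notes list BWA 0.6.2-r126, hg38 and mm10 without a role. The annotation and the strand setting of counting are not given in the sources used here. Every value above 0 was a whole multiple of a library's step (tolerance 0.01), which gave 9755081 to 16904865 reads.

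Values were tested as log2(normalized count + 1) with limma 3.58.1 (mean-variance trend, R 4.3.3) over the 14703 genes that reached 10 in 2 or more libraries, with Benjamini-Hochberg adjustment and a threshold of 0.05. Fold changes are on that scale, which understates those of low genes. The passages of each line were averaged on the log2 scale for comparisons with tissue, and TFCO, thyroid and lung shared an estimate of the spread. Late against early used all 8 libraries without a block. The lines pair early and late libraries, since they come from the same animal (r = 0.48 of the line differences across genes). With 2 samples in each group, 0.333 is the smallest two-sided p that exact permutation allows, so none is given. Scripts were tested on simulated data.

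The members and lists were chosen with earlier results of these data known. All 46 members are named, and of other lists at most 3 genes per list and comparison, those past the threshold without overlap and with the largest change. Csf1, Csf3, Cx3cl1, Il34 and Ltf fall outside this rule and were chosen after their values were seen. One result of those other lists is not reported here. Alternatives were the pseudocount (0.5 and 5), the filter (none and 50), quantile normalization, equal totals, no trend, voom, only the groups compared, separate TFCO libraries, the replicate block and leaving out each library. Positions are from GENCODE M21 (GRCm38), matched by symbol.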

Additional observations from a re-analysis of the deposited data

Results flagged for a closer look

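Cd14 drew attention because the lines moved to opposite sides of thyroid tissue at both passages. Its mean in mThy16 was 3.69 above thyroid on the log2 scale, and its mean in mThy14 was -4.48 relative to thyroid. The difference between the lines was not tested, since each line has 1 early and 1 late library. No outlier test was made, because no group has 4 independent samples.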

How the results depend on the processing

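No call of the 46 genes changed direction under any alternative that was run. With the refits that left out a library set aside, few calls but those against lung were kept under every alternative. They were 0 of 12 for TFCOs against thyroid, 26 of 34 for TFCOs against lung and 1 of 9 for thyroid against lung. The 12 calls lower in TFCOs than in thyroid became 2 with voom and 1 with only the groups compared, and ranged from 2 to 21 when each library was left out in turn. The 34 calls against lung ranged from 9 to 41 when libraries were left out, 9 without lung tissue 1 and 10 without lung tissue 2. The 9 calls of thyroid against lung became 2 with only the groups compared and ranged from 0 to 20, being 0 without lung tissue 1 or lung tissue 2 (9 and 17 at an unadjusted p under 0.05), 4 without early mThy16 and 20 without thyroid tissue 2. Where a group was left with 1 library, that library was assumed to vary like the other groups. The causes were not tested. With the replicate block (line and tissue number), 7 genes were called for thyroid against lung and 0 for late against early TFCOs. The lines pair the early and late libraries, whereas tissue numbers did not (r = -0.07 across genes). Without Tg reads the summed share was 0.0424% in thyroid tissue 1 and 0.0842% in thyroid tissue 2. Quantile normalization moved the median of all genes to 0.17, 0.32 and 0.14 for TFCOs against thyroid, TFCOs against lung and thyroid against lung, from 0.05, 0.05 and 0.03. Depth limits the genes near the floor of 2.02 to 4.22 normalized counts. The edgeR and DESeq2 alternatives on recovered reads were not run, and voom was the only test on reads.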

Other observations

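Ligands of the listed receptors were looked at beside the receptors. Csf1, the growth factor bound by the Csf1r protein, had 28.1, 177, 5462 and 5289.7 normalized counts across the 4 TFCO libraries, against 332 and 453 for thyroid and 824 and 646 for lung. Csf3, the growth factor bound by the Csf3r protein, had 11.2, 10.4, 634 and 637 normalized counts across the 4 TFCO libraries, against 20.7 and 0 for thyroid and 0 and 0 for lung. Both were high in mThy16 at both passages and lower in mThy14, while Csf1r stayed at 7.03 to 42.5 and Csf3r at 17.7 to 48.1 in TFCOs. Cx3cl1, the ligand of Cx3cr1, was at 72.7 to 87.1 in TFCOs and differed between the thyroid tissues at 57.7 and 1212. Il34, another ligand of the list, had 23.9, 5.20, 105 and 107 across the 4 TFCO libraries, against 131 and 477 for thyroid and 159 and 235 for lung. Neither Csf1, Csf3, Cx3cl1 nor Il34 passed the test between TFCOs and thyroid. Of the 9 ligand genes tested, limma called 0 there, with a median log2 fold change of -1.395. TFCOs were lower without overlap in 3, Il34 among them, beside 17.3% of all genes, and higher in 0, beside 17.2%.

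Of the granulocyte genes, Ltf, the antimicrobial protein lactoferrin that epithelial cells also make, was chosen after its values were seen. It had 33.7, 405, 52989 and 55098 normalized counts across the 4 TFCO libraries, against 83.8 and 1605 for thyroid and 264 and 225 for lung. The mThy16 libraries were far above all others. Of the 9 other granulocyte genes tested, Ltf among them, limma called 0 between TFCOs and thyroid. Against lung it called 4 lower in TFCOs, beside 13.5% of all genes, and 0 higher, and Ltf was called in neither comparison. The median log2 fold changes of the 9 genes were 1.34 against thyroid and -0.83 against lung.

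Of 6 red blood cell genes, 1 was called lower in TFCOs against thyroid and against lung, beside 3.05% and 13.5% of all genes. The other 5 were not called, and the median log2 fold changes of the 6 were -0.31 and -0.76. The gene called was Alas2, the first enzyme of haem synthesis in red cells. It was at 2.24 to 21.1 normalized counts in TFCOs, 2778 and 1838 in thyroid and 2085 and 1854 in lung, and the tested differences were -7.66 ± 0.56 (SE, adjusted p = 0.00177) and -7.46 ± 0.56 (SE, adjusted p = 0.000755) on the log2 scale. Of 8 platelet genes, 4 were lower in TFCOs than in lung, beside 13.5% of all genes. Against thyroid, limma and voom each called 0 of the 8 and each gave 1 lower at an unadjusted p under 0.05, with a median log2 fold change of 0.49 by limma.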
